A study of Mus musculus with 8 samples.

Results

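The libraries came from mouse cultures labelled BMAd cells, read here as bone marrow adipocytes. Followed across them were the glucocorticoid receptor Nr3c1, the closely related mineralocorticoid receptor Nr3c2 and their chaperones and immunophilins Fkbp5, Fkbp4, Ptges3 and Stip1. The steroid-activating enzyme Hsd11b1 and the coactivators Ncoa1 and Ncoa2 were also followed. These 9 genes were chosen by name and each stood on 1 row of the 54134 genes of the table. Wild-type bone marrow stem cells were grown in serum-supplemented medium and differentiated for 14 days with a commercial adipogenesis kit in all groups. The Control libraries (n = 2) came from cells given nothing further according to the labels. For the GC libraries (n = 3) the cells had in addition 24 hours of DEX at 1e-06 M; DEX is dexamethasone, a strong synthetic agonist of Nr3c1. The GC+GW9662 libraries (n = 3) had the same DEX with GW9662, an inhibitor of the fat cell transcription factor PPARγ, at a dose that the labels leave out. Separate cultures are not stated for any group. Each p-value therefore reflects how far these libraries scatter, which may be technical scatter alone.

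In the absence of hormone the receptor is held in the cytoplasm by Hsp90, which receives it from Hsp70 through the adaptor Hop (the product of Stip1) and is stabilised by p23 (Ptges3). The immunophilins FKBP51 (Fkbp5) and FKBP52 (Fkbp4) then occupy the same place on Hsp90: FKBP51 keeps hormone affinity low and FKBP52 links the complex to the motor protein dynein. Bound receptor enters the nucleus and recruits coactivators of the p160 family (Ncoa1, Ncoa2 and Ncoa3). In fat cells the enzyme encoded by Hsd11b1 regenerates active glucocorticoid from its inert form, and Fkbp5 is among the genes that glucocorticoids induce most widely.

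The promoters of 3 cochaperone genes are shown because these genes moved by very different amounts between the groups. Of the 9 genes 7 had an entry among RefSeq promoters (GRCm38.p6); Ncoa2 and Nr3c1 had none. The 250 bases before the start of each gene are printed 5′ to 3′ on its own strand, with capitals at CCAAT boxes (CCAAT, on either strand) and, in Fkbp4, at a pair of facing heat shock units.
Stip1, chr19:7040027-7040276, minus strand: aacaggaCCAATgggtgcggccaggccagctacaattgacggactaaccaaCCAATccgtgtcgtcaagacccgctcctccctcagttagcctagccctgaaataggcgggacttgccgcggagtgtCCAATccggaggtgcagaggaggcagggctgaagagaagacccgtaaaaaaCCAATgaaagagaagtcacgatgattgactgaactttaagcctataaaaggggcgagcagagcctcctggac
Fkbp4, chr6:128438657-128438906, minus strand: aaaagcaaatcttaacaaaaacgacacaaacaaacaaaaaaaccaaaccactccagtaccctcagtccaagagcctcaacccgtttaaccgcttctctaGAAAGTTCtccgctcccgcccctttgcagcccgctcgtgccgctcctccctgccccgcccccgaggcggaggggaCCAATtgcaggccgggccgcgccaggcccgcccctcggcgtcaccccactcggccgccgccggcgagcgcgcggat
Fkbp5, chr17:28486150-28486399, minus strand: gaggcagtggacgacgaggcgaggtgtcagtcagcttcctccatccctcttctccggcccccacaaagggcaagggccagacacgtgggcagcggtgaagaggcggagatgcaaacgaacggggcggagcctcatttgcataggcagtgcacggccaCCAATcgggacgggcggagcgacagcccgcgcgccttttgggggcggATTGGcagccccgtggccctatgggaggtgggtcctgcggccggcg
The RefSeq start of Fkbp5 lies inside the gene as deposited (chromosome 17, 28399095 to 28517524). Stip1 held 4 CCAAT boxes, Fkbp4 held 1 and Fkbp5 held 2. Over 32851 promoter windows of 300 bases, 37.4% held at least 1 such box and 1.06% held 4 or more. Of the 7 genes, 5 held at least 1 box in this window: Fkbp4, Fkbp5, Hsd11b1, Nr3c2 and Stip1. The facing heat shock units, searched as GAANNTTC or TTCNNGAA on both strands, were found in 15.1% of all windows and in those of Fkbp4 and Nr3c2 among the 7. The longer heat shock element of 3 alternating units, each match of which contains the shorter pair (0.603% of all windows), and the palindromic glucocorticoid response element (0.475% of all windows) were in 0 of the 7 windows, both strands searched. The glucocorticoid half-site (AGAACA, in 19% of all windows) was in 1 of the 7, that of Ncoa1. Such matches describe the letters of these windows only.

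The values are TPM: reads per length of gene, brought to a common sum within every library. Differences below are on the log2(TPM + 1) scale ± standard error from limma, fitted over all 8 libraries, with Benjamini-Hochberg adjusted p over 14985 genes that reached 1 TPM in at least 2 libraries. A difference passed at an adjusted p below 0.05, and this scale understates changes of low genes. Of the 9 genes 8 met the filter; Nr3c2 did not. Whole-number steps in the TPM values placed the depth at 17438258 to 26524956 reads per library, an estimate that may be too low, and gave the reads behind each of the 9 genes. Depth was lower in the GC+GW9662 libraries (17438258 to 18472144) and in GC replicate 1 (17687887). It was higher in the Control libraries (25225197 and 26524956) and in GC replicates 2 and 3 (25623345 and 24949517). The part of depth in the differences below was not tested. Of 10 adipocyte marker genes, 9 were above 0 in each group and Lep, which encodes leptin, was listed at 0 in all 8 libraries. Their summed level was 1200 TPM in both Control libraries, 37.4 to 52.6 in GC and 1080 to 1230 in GC+GW9662. Of the 8 adipocyte markers tested, 3 were higher and 3 lower in GC+GW9662 than in Control, among them Fabp4 (301 to 706 TPM) and Lpl (621 to 92.8 TPM), so the near-equal sums do not mean equal markers. Macrophage markers (10 genes) summed to 31400 to 32300, 9940 to 10400 and 24800 to 28900 TPM, and stromal and osteoblast markers (10 genes) to 6100 to 6370, 93.7 to 127 and 3420 to 3540 TPM in the same order. Of the macrophage markers, 8 were lower and 1 higher in GC than in Control (all genes: 39.1% and 16.2%). Cd68 was higher (979, 2650 and 594 TPM) and Cd14 did not pass (501, 456 and 436 TPM). In GC+GW9662 6 were lower than in Control and none higher (all genes: 48.6% and 14.1%). Csf1r (709, 28.5 and 139 TPM) and Mrc1 (421, 3.59 and 41.2 TPM) were among these. Acta2, which encodes smooth muscle actin, made up most of the stromal sums in Control and GC+GW9662 (means of 4770 and 3130 TPM), and other stromal markers were further apart, such as Col3a1 (219, 4.73 and 27.0 TPM) and Pdgfrb (171, 2.66 and 31.2 TPM). Marker sums for 8 neutrophil genes were 21 to 26.7, 249 to 550 and 72.4 to 83.9 TPM, nearly all of it S100a8 (means of 22.8, 381 and 77.3 TPM), with Ltf at 0 in all groups. The sums were, for 9 lymphocyte genes, 7.38 to 9.03, 7.02 to 13.3 and 15.2 to 24.5, for 7 endothelial genes 9.73 to 10.3, 3.75 to 4.23 and 8.11 to 9.21, and for 6 erythroid genes at most 2.62. Transcripts of several cell types were thus present. The macrophage markers summed far above the adipocyte markers in every group, so the levels below cannot be assigned to adipocytes. Sums over different genes do not give shares of cells. The part of cell composition in the results below was not tested, and fewer cells of a type cannot be told apart from less RNA per cell. The median of all tested genes was -0.38 in GC against Control, -0.11 in GC+GW9662 against GC and -0.49 in GC+GW9662 against Control, and scaling by the median ratio moved it to 0.05, 0.01 and 0.04. The same scaling turned 2428 higher and 5863 lower genes into 4112 and 3970 in GC against Control, and 2114 and 7284 into 4507 and 4601 in GC+GW9662 against Control.

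**Figure D1:**
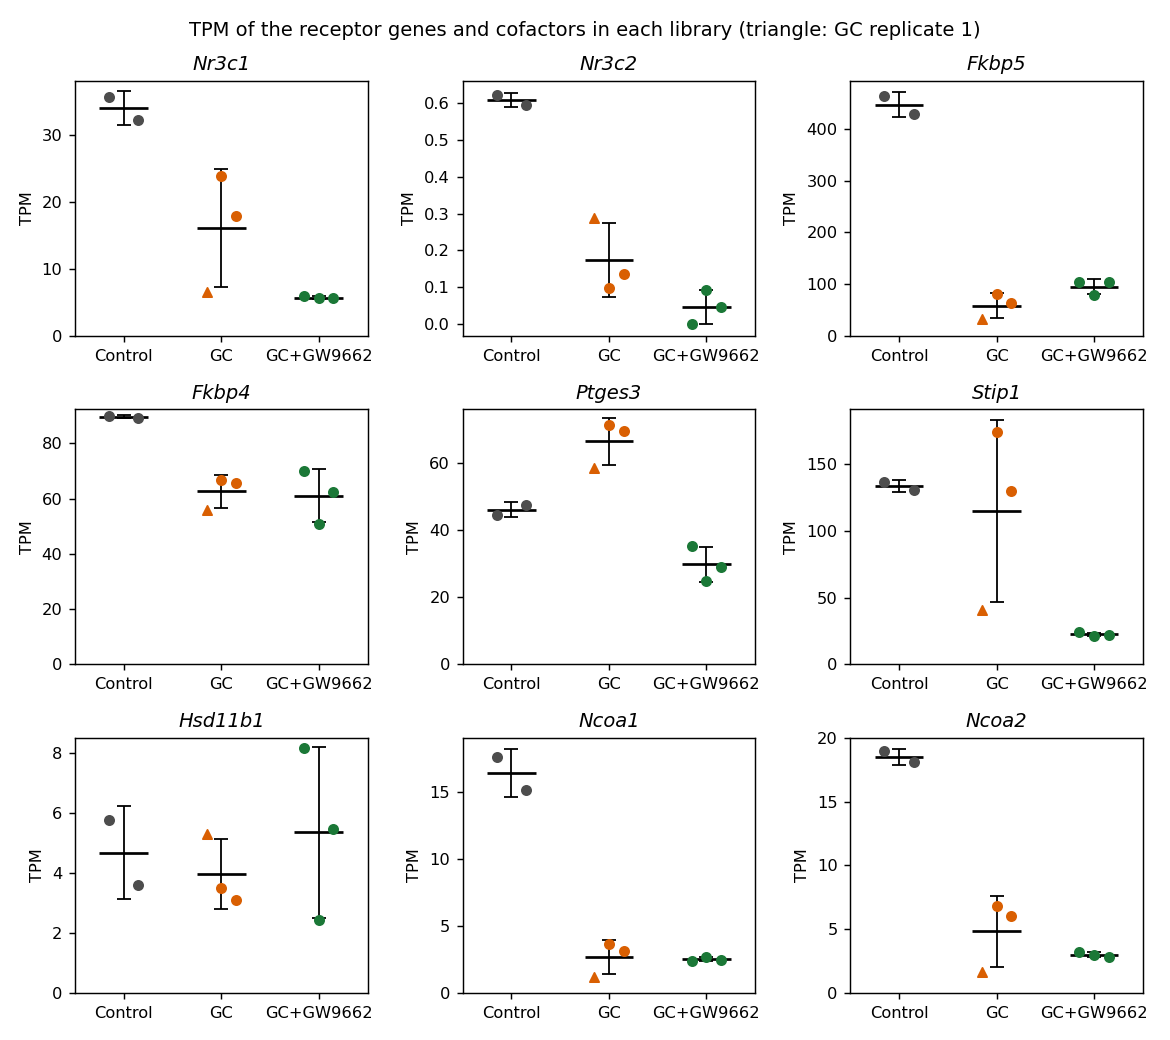
TPM (vertical axis, linear) of each of the 9 genes in every library, by group (horizontal axis). Points are libraries, with GC replicate 1 as a triangle; the bar is the group mean and the whisker its SD over 2, 3 and 3 libraries. Nr3c1, Ncoa1, Ncoa2 and Fkbp5 are highest in both Control libraries, Stip1 spans 40.5 to 174 TPM within GC, and Hsd11b1 overlaps between all groups.

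Nr3c1 (chromosome 18, 39410545 to 39491301, minus strand, ENSMUSG00000024431) encodes the glucocorticoid receptor. Gene positions here are as deposited; they equal those of GRCm38 in GENCODE M21 for 97.3% of genes, but not for Nr3c1, Fkbp5 and Stip1, whose deposited start or end differs. Nr3c1 measured 35.8 and 32.3 TPM in the Control libraries, 6.56, 24.0 and 18.0 TPM in the GC libraries and 5.99, 5.62 and 5.62 TPM in the GC+GW9662 libraries. The groups did not overlap, but GC replicate 1 sat beside the GC+GW9662 libraries and far from the other GC libraries. Estimated reads behind these values ran from 395 to 2442, with 422 in GC replicate 1 against 1871 and 1434 in the other GC libraries. Nr3c1 was lower in the libraries labelled GC than in Control by a log2 difference of -1.19 ± 0.44 (limma adjusted p = 0.0469), which is -0.81 relative to the median of all genes. This call is marginal: it was lost in 16 of 21 alternatives (adjusted p 0.00563 to 0.195), among them every omission of a single Control or GC+GW9662 library and that of GC replicate 3. Without GC replicate 1 the difference was -0.69 (adjusted p = 0.00563). Between GC+GW9662 and GC it was -1.18 ± 0.39 (limma adjusted p = 0.0294), and -1.69 without GC replicate 1. It was lost when GC replicate 2 (-0.83), GC replicate 3 (-1.03) or one of the GC+GW9662 libraries (-1.21 to -1.17) was omitted, and the adjusted p ran from 1.63e-05 to 0.0971 over the alternatives. GC+GW9662 against Control gave the widest gap, -2.38 ± 0.44 (limma adjusted p = 0.00315), a mean level 5.93-fold lower, and this call held in all 21 alternatives (-2.55 to -1.07, the last with the trend with exon length removed).

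Nr3c2 (chromosome 8, 76899442 to 77245012, plus strand) encodes the mineralocorticoid receptor, which also binds glucocorticoids with high affinity. Control libraries held 0.622 and 0.595 TPM of it, GC libraries 0.288, 0.0977 and 0.136, and GC+GW9662 libraries 0, 0.0928 and 0.0458. Behind these values stand 39 and 40 reads for Control, then 17, 7 and 10 for GC, then 0, 6 and 3 for GC+GW9662; the count of 0 allows up to 0.0491 TPM (3 reads). The Control libraries lay above all others, at values where a few reads decide the order of the rest. Nr3c1 stood 57.6- and 54.3-fold above Nr3c2 in the Control libraries and 22.8-, 246- and 132-fold above it in the GC libraries, and 60.5- and 123-fold above it in GC+GW9662 replicates 2 and 3, with no ratio where Nr3c2 was at 0. Outside Control these ratios rest on 3 to 17 reads of Nr3c2. Tested without a filter on low values, where 31.5%, 33.4% and 34.6% of 26812 genes passed in the 3 comparisons, Nr3c2 differed by -0.46 ± 0.09 in GC against Control (limma adjusted p = 0.00608), by -0.16 ± 0.08 in GC+GW9662 against GC (adjusted p = 0.161) and by -0.62 ± 0.09 in GC+GW9662 against Control (adjusted p = 0.00482).

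Fkbp5 (chromosome 17, 28399095 to 28517524, minus strand) was the most abundant of the 9 in Control. The Control libraries held 463 and 429 TPM, the GC libraries 32.5, 80.3 and 62.8, and the GC+GW9662 libraries 104, 78.8 and 104. Both Control libraries were far above all 6 libraries that received DEX, which is the reverse of the known induction of Fkbp5 by glucocorticoid, so each direction here rests on the group labels. The difference was -3.00 ± 0.33 in GC against Control (limma adjusted p = 1.42e-04), a mean 7.63-fold lower, and -2.22 ± 0.33 in GC+GW9662 against Control (adjusted p = 0.00204); both calls held in all 21 alternatives, but with the trend with exon length removed the second difference shrank to -0.76 and the first to -2.07. GC and GC+GW9662 overlapped, at 0.78 ± 0.30 (limma adjusted p = 0.0501). That difference passed in 7 of 21 alternatives, including median-ratio scaling (0.94, adjusted p = 0.00541), removal of the trend with exon length (1.31, adjusted p = 5.13e-05) and omission of GC replicate 1 (0.41, adjusted p = 0.0378) or 2 (1.05, adjusted p = 0.0129), within a range of 5.13e-05 to 0.128.

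Fkbp4 (chromosome 6, 128429735 to 128438677, minus strand), whose product competes with that of Fkbp5 for Hsp90, moved little. Levels were 90.1 and 89.2 TPM for Control, 56.0, 66.7 and 65.6 for GC, and 70.1, 50.8 and 62.3 for GC+GW9662. Control was above both other groups, which overlapped each other. The differences were -0.51 ± 0.16 in GC against Control (limma adjusted p = 0.023), -0.56 ± 0.16 in GC+GW9662 against Control (adjusted p = 0.0143) and -0.05 ± 0.14 in GC+GW9662 against GC (adjusted p = 0.788). Both falls were close to the median of all genes (-0.13 and -0.06 relative to it), and median-ratio scaling turned them into 0.05 (adjusted p = 0.794) and 0.16 (adjusted p = 0.296), over ranges of 0.012 to 0.794 and 0.00505 to 0.75. Omission of either Control library also ended both calls (-0.52 and -0.51, adjusted p 0.104 and 0.113, in the first comparison, and -0.57 and -0.55, adjusted p 0.0713 and 0.0815, in the second). So did the replicate block by title number in the first (adjusted p = 0.0635) and by bracketed number in both (0.085 and 0.0592).

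The balance of the immunophilins was taken as their TPM ratio within each library, which a common scaling factor leaves unchanged; quantile normalization was not applied to it. Fkbp5 stood 5.14- and 4.81-fold above Fkbp4 in the Control libraries. In the GC libraries the ratio was 0.581, 1.20 and 0.957, and in the GC+GW9662 libraries 1.48, 1.55 and 1.66. The log2 ratio was 2.31 ± 0.07 in Control (SD, n = 2), -0.19 ± 0.54 in GC (n = 3) and 0.64 ± 0.08 in GC+GW9662 (n = 3), with no overlap between the groups. How often ratios of other gene pairs overlap was not measured. Among single tested genes, groups did not overlap for 71.9% (GC against Control), 64.1% (GC+GW9662 against GC) and 79.0% (GC+GW9662 against Control). Fkbp5 and Fkbp4 differ in exon length, and the trend with length described below was not removed from the ratio.

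Stip1 (chromosome 19, 7020696 to 7040026, minus strand), which encodes the Hsp70-Hsp90 adaptor Hop, separated GC+GW9662 from the rest. It measured 137 and 131 TPM in Control, 40.5, 174 and 130 TPM in GC and 24.0, 21.5 and 21.9 TPM in GC+GW9662. GC replicates 2 and 3 were near or above Control and GC replicate 1 lay well below it, with 879 estimated reads against 4578 and 3500. Stip1 was lower in GC+GW9662 than in GC by -2.07 ± 0.46 (limma adjusted p = 0.0053) and lower than in Control by -2.53 ± 0.51 (adjusted p = 0.00417), mean levels 5.11- and 5.97-fold lower, and both calls held in all 21 alternatives. Without GC replicate 1 the first of these was -2.69 (adjusted p = 8.44e-07). GC against Control gave -0.46 ± 0.51 (limma adjusted p = 0.479) and, without GC replicate 1, 0.16 (adjusted p = 0.356), within 0.134 to 0.866 over the alternatives, so a difference was not detectable among these libraries.

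Ptges3 (chromosome 10, 128058954 to 128077272, plus strand), the gene of the cochaperone p23, was the only one of the 9 that passed as higher in GC than in Control. Control libraries gave 44.5 and 47.5 TPM, GC libraries 58.3, 71.3 and 69.4, and GC+GW9662 libraries 35.3, 24.9 and 29.1. The 3 groups did not overlap, with GC highest and GC+GW9662 lowest. The rise in GC was 0.51 ± 0.17 (limma adjusted p = 0.0312), lost on omission of Control replicate 1 or 2, of GC replicate 2 or 3, or of GC+GW9662 replicate 3 (adjusted p up to 0.162) and in both replicate blocks, and larger under median-ratio scaling (1.07, adjusted p = 3.24e-04, the lowest of all). GC+GW9662 against GC gave -1.14 ± 0.15 (limma adjusted p = 3.81e-04), a call that held in all 21 alternatives (-1.32 to -0.92). The difference of -0.62 ± 0.17 from Control (limma adjusted p = 0.0125) was -0.13 relative to all genes, turned to 0.09 under median-ratio scaling (adjusted p = 0.602) and was lost without either Control library (adjusted p = 0.0572 and 0.0813, within 0.00408 to 0.938). A pseudogene row, Ptges3-ps, stood at 167 and 137 TPM for Control, 176, 247 and 203 for GC, and 106, 90.6 and 88.5 for GC+GW9662, above Ptges3 itself in every library, so reads of this gene may have been divided with its copy and its level is uncertain; the row was looked at after its values were seen.

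Hsd11b1 (chromosome 1, 193221634 to 193264075, minus strand), the enzyme that reactivates inert glucocorticoid, did not separate the groups. Levels were 5.77 and 3.60 TPM for Control, 5.31, 3.51 and 3.10 for GC, and 8.18, 2.45 and 5.48 for GC+GW9662, from 53 to 167 estimated reads. All groups overlapped, and the widest spread was among the GC+GW9662 libraries. The differences of -0.19 ± 0.42, 0.27 ± 0.37 and 0.08 ± 0.42 (limma adjusted p = 0.724, 0.542 and 0.884, in the order GC against Control, GC+GW9662 against GC, GC+GW9662 against Control) were smaller than their standard errors. No alternative brought any of them past the threshold.

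The coactivator genes Ncoa1 (chromosome 12, 4247362 to 4477182, minus strand) and Ncoa2 (chromosome 1, 13139105 to 13374083, minus strand) encode p160 proteins that bring histone acetyltransferases to the receptor. Ncoa1 stood at 17.6 and 15.1 TPM for Control, 1.22, 3.65 and 3.09 for GC, and 2.39, 2.71 and 2.49 for GC+GW9662. For Ncoa2 the Control libraries gave 19.0 and 18.1 TPM, the GC libraries 1.65, 6.81 and 6.02, and the GC+GW9662 libraries 3.20, 2.96 and 2.85. For both genes the Control libraries were above all 6 others, and GC overlapped GC+GW9662. Ncoa1 was lower by -2.32 ± 0.31 in GC (limma adjusted p = 4.24e-04) and by -2.30 ± 0.31 in GC+GW9662 (adjusted p = 0.0017) than in Control, means 6.17- and 6.47-fold lower. Both calls held in all 21 alternatives, but with the length trend removed the differences shrank to -1.45 and -0.90. Ncoa2 differed from Control by -1.89 ± 0.42 in GC (limma adjusted p = 0.00587, held in all 21 alternatives) and by -2.29 ± 0.42 in GC+GW9662 (adjusted p = 0.00324), the second lost only with the length trend removed (-0.57, adjusted p = 0.0505, range from 6.73e-06). That removal also took the GC difference of Ncoa2 to -0.68 (adjusted p = 0.021, within a range of 8.19e-05 to 0.0412). GC+GW9662 against GC gave 0.02 ± 0.28 for Ncoa1 (limma adjusted p = 0.956) and -0.39 ± 0.38 for Ncoa2 (adjusted p = 0.387). Ncoa1 passed there only with the length trend removed (0.55, adjusted p = 0.0119) and Ncoa2 only without GC replicate 1 (-0.89, adjusted p = 4.63e-04), over ranges of 0.0119 to 1 and 4.63e-04 to 0.822.

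**Figure D2:**
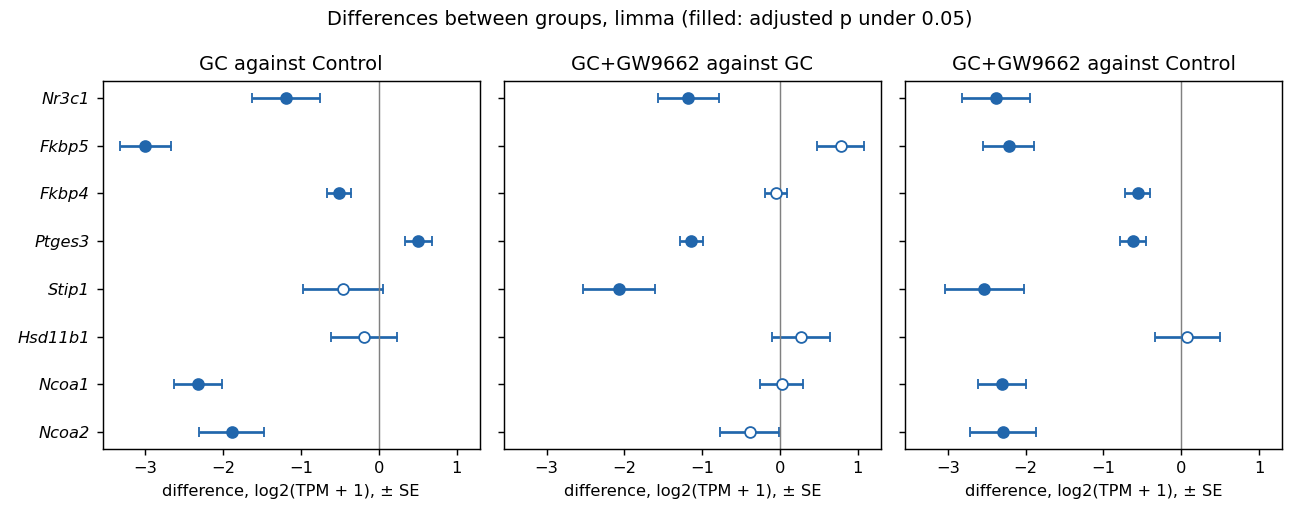
Difference in log2(TPM + 1) (horizontal axis) of the 8 tested genes in the 3 comparisons, with limma standard errors as whiskers and filled points where the adjusted p is below 0.05. Fkbp5, Ncoa1 and Ncoa2 lie near or below -1.89 in both comparisons with Control, and Stip1 and Ptges3 are lower in GC+GW9662 than in GC.

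Counted together, 1 of the 8 tested genes was higher and 5 were lower in GC than in Control, where 55.3% of all genes passed (16.2% higher and 39.1% lower). Their median difference was -0.85 against -0.38 for all genes. In GC+GW9662 against GC, 3 were lower and none higher, against 61.7% of all genes (33.5% lower), with medians of -0.22 and -0.11. In GC+GW9662 against Control, 7 were lower and none higher, against 62.7% of all genes (48.6% lower), with medians of -2.26 and -0.49. Nr3c1, Ncoa1, Fkbp5 and Ncoa2 lie in the 2 longest of 10 bins of exon length, described below. All tested genes in those bins had medians of -0.72 and -1.09 in GC against Control. The medians there were -0.54 and -0.51 in GC+GW9662 against GC, and -1.39 and -1.68 in GC+GW9662 against Control. The medians of all genes are thus not matched for length. The groups did not overlap for 7, 4 and 8 of the 9 genes in these comparisons, where 71.9%, 64.1% and 79.0% of tested genes did not. The comparisons share libraries, so their counts are not independent of each other.

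The order of the genes by mean level differed between the groups. An order across genes also rests on the gene lengths behind the TPM values and, for Ptges3, on reads possibly divided with its pseudogene. In Control it ran from Fkbp5 (446 TPM) through Stip1 (134), Fkbp4 (89.7), Ptges3 (46.0), Nr3c1 (34.1), Ncoa2 (18.5), Ncoa1 (16.4) and Hsd11b1 (4.69) to Nr3c2 (0.608), and no neighbours overlapped between the 2 libraries. In GC the ranges of Stip1, Ptges3, Fkbp4 and Fkbp5 (means of 115, 66.3, 62.7 and 58.5 TPM) overlapped, and no single order held. Ptges3 was highest in GC replicate 1 (58.3 TPM, Stip1 at 40.5), and Stip1 was highest in GC replicate 2 (174 TPM, Ptges3 at 71.3). In GC+GW9662 Fkbp5 led at 95.4 ± 14.3 TPM, followed by Fkbp4 (61.1 ± 9.68), Ptges3 (29.8 ± 5.19) and Stip1 (22.5 ± 1.36; SD, n = 3).

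GC replicate 1 and exon length touch several of these values. GC replicate 1 stood at 0.267 of the mean of GC replicates 2 and 3 for Stip1, 0.258 for Ncoa2, 0.313 for Nr3c1, 0.361 for Ncoa1 and 0.454 for Fkbp5, but at 0.828 for Ptges3, 0.846 for Fkbp4 and 1.61 for Hsd11b1. Over all tested genes, the median difference of GC replicate 1 from the mean of the other GC libraries ran from 0.20 in the shortest of 10 bins of exon length to -0.81 in the longest. Nr3c1, Ncoa1, Fkbp5 and Ncoa2 lie in the 2 longest bins (7684 to 15642 bases of exon in GENCODE M21), whereas Stip1, at 2108 bases, lies in the third-shortest, where that median was 0.12. GC against Control showed a like trend, from 0.18 to -1.09, and with it removed Nr3c1 no longer passed (-0.41, adjusted p = 0.195) while Fkbp5 (-2.07) and Ncoa1 (-1.45) did. The trend was widest in GC+GW9662 against Control, from 0.59 in the shortest bin to -1.68 in the longest. In GC+GW9662 against GC these bins stood at 0.4 and -0.51. The smallest length that gives whole reads was far below the M21 exon length for Fkbp5 (3858 against 9468 bases), Ncoa2 (8171 against 15642) and Hsd11b1 (1978 against 4251), so the place of these genes on the length axis, and the values with the trend removed, are uncertain. The part of length in these differences was not tested beyond this removal.

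**Figure D3:**
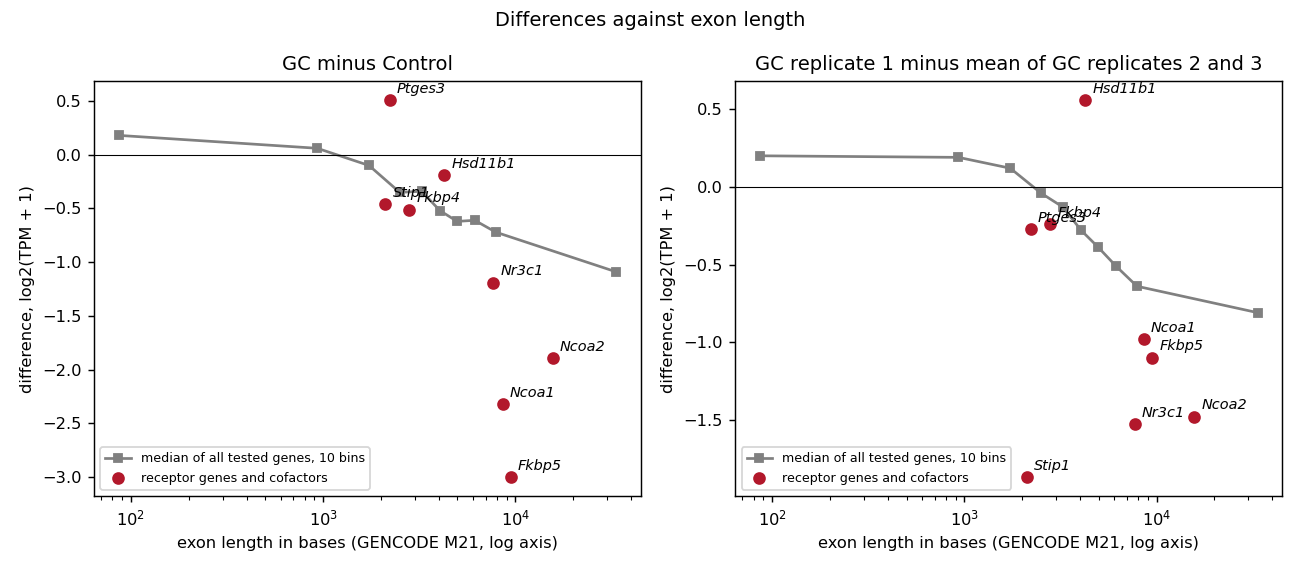
Difference in log2(TPM + 1) (vertical axis) against exon length in bases (horizontal log axis), for GC minus Control on the left and GC replicate 1 minus the mean of GC replicates 2 and 3 on the right. Grey squares are medians of all tested genes in 10 bins of length and red points are the 8 tested genes. Nr3c1, Ncoa1, Ncoa2 and Fkbp5 lie below the medians on both sides, as does Fkbp4 by less, and Stip1 falls far below the medians only on the right.

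Some of the 9 followed each other across the 8 libraries. On the log2 scale Pearson's r was 0.97 between Ncoa1 and Ncoa2, 0.96 between Fkbp5 and Ncoa1 and 0.95 between Nr3c1 and Stip1. Nr3c1 also correlated at 0.93 with Ncoa2 and 0.84 with Ncoa1. For Fkbp4 r was 0.9 with Ncoa2, 0.88 with Fkbp5, 0.88 with Ncoa1 and 0.8 with Nr3c1. Fkbp5 and Ncoa2 stood at 0.88 and Ptges3 and Stip1 at 0.79, while Hsd11b1 correlated at 0.29 at most with any other. These are descriptions over 8 points that share 3 groups, their depth and the length trend. By a fixed rule, the 5 genes most like Nr3c1 were Dnm2 (group means of 126, 58.2 and 22.4 TPM), App, Ywhaz, Ppp3ca and Lemd3, at r from 0.998 to 0.999. Those most like Fkbp5 were Parp3 (59.1, 7.29 and 12.4 TPM), Man2b1, Sh3pxd2b, Tgfbr2 and Pik3ap1, at r of 0.999 or more. Likeness of this degree was common: of 8799 genes compared, 2015 correlated with Nr3c1 and 1258 with Fkbp5 at 0.9 or more.

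The wider chaperone machinery of the receptor differed most between GC+GW9662 and GC. Of 17 listed chaperones and cochaperones, all tested, 13 were lower and 2 higher in GC+GW9662 (all genes: 33.5% and 28.3%), with a median of -1.16 against -0.11. Dnajb1, an Hsp40 that starts substrate folding, had group means of 54.0 (Control), 435 (GC) and 56.5 TPM (GC+GW9662) and changed by 2.99 ± 0.11 in GC against Control (limma adjusted p = 6.18e-07) and by -2.92 with GW9662. Hspa8, the constitutive Hsp70, went from 601 TPM in GC to 201 in GC+GW9662 (-1.55). Ppid, the immunophilin cyclophilin 40, rose by 0.68 in GC against Control and fell by 1.16 in GC+GW9662 against GC. Fkbp8, a membrane-bound immunophilin, went the other way, -0.56 in GC and 0.77 with GW9662. Against Control, GC+GW9662 was lower for 12 and higher for 1 of the 17 (median -0.98 against -0.49), including Hsp90ab1, the constitutive Hsp90 (1280 to 233 TPM, -2.47), Hspa4 (131 to 17.1 TPM, -2.87), the kinase-specific cochaperone gene Cdc37 (-0.88) and the receptor-associated phosphatase gene Ppp5c (-1.15). Under median-ratio scaling and with the length trend removed, these became 6 higher and 7 lower. In GC against Control 2 were higher and 1 lower (all genes: 16.2% and 39.1%). Without GC replicate 1 the counts were 8 and 1, under median-ratio scaling 10 and 0, and with the length trend removed 8 and 0. The count thus depends on the scaling and on GC replicate 1.

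**Figure D4:**
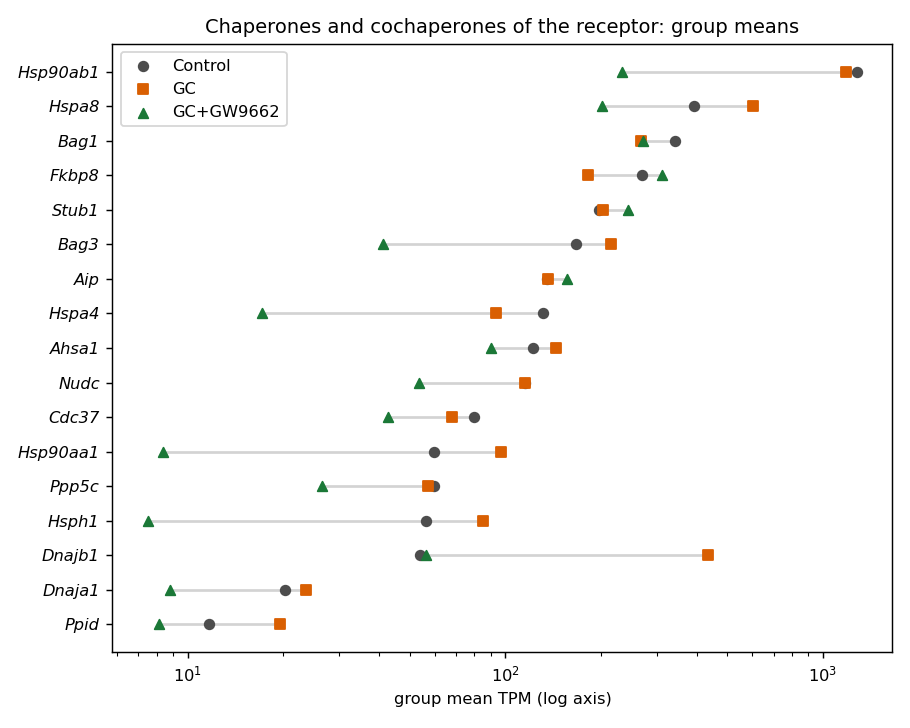
Group mean TPM (horizontal log axis) of the 17 listed chaperones and cochaperones of the receptor, 1 row per gene, with Control as circles, GC as squares and GC+GW9662 as triangles. GC+GW9662 is leftmost for most genes, as for Hsp90ab1 (1280, 1180 and 233 TPM), and GC stands apart to the right for Dnajb1.

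Of 22 listed coactivators and chromatin remodellers 21 were tested, of which 11 were lower and none higher in GC than in Control (all genes: 39.1% and 16.2%; median -1.28 against -0.38), so the share called in either direction was near the 55.3% of all genes. In GC+GW9662 against Control 19 were lower and none higher (all genes: 48.6% and 14.1%; median -1.55 against -0.49). Tgfb1i1, a focal adhesion protein that also binds steroid receptors, stood at 59.8, 2.38 and 26.4 TPM (-4.17 ± 0.14 in GC, limma adjusted p = 4.92e-07). Smarca2, an ATPase of the SWI/SNF remodeller, stood at 22.8, 3.03 and 4.34 TPM, and Med24, a Mediator subunit, at 18.3, 6.09 and 5.57. The arginine methyltransferase gene Prmt1 was lowest in GC (73.3, 27.0 and 86.6 TPM). In GC+GW9662 against GC, 7 were lower and 3 higher (all genes: 33.5% and 28.3%; median -0.73 against -0.11). That count rose to 14 lower and 3 higher without GC replicate 1, and was 3 and 3 without GC replicate 3, 4 and 2 without GC+GW9662 replicate 1 and 3 and 2 without GC+GW9662 replicate 3. With the length trend removed the calls against Control became 9 lower and 5 higher in GC, and 4 lower and 1 higher in GC+GW9662. Tgfb1i1 had the same order of groups as the stromal markers named above (Control highest, GC lowest), and the part of stromal cells in its change was not tested.

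Corepressors gave 8 lower and 2 higher of 13 in GC against Control (all genes: 39.1% and 16.2%; median -0.96 against -0.38) and 12 lower and 1 higher in GC+GW9662 against Control (all genes: 48.6% and 14.1%; median -1.24 against -0.49). Tle3, a Groucho-family corepressor, stood at 19.1, 6.09 and 7.52 TPM. Hexim1, an inhibitor of the elongation factor P-TEFb that also binds the receptor, was highest in GC (67.2, 289 and 24.6 TPM; 2.03 ± 0.28 in GC against Control, limma adjusted p = 4.77e-04). Crtc2, which rose by 0.94 in GC, is a coactivator of CREB although it stood in this list. In GC+GW9662 against GC, 3 were lower and 2 higher (all genes: 33.5% and 28.3%; median -0.08 against -0.11), and with the length trend removed 3 and 6. The 13 calls of GC+GW9662 against Control fell to 7 with quantile normalization, the length trend removed or Control replicate 1 left out, and to 8 under median-ratio scaling.

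Among genes that carry the receptor to the nucleus or phosphorylate it, 14 of 19 were lower and 1 higher in GC+GW9662 than in GC (all genes: 33.5% and 28.3%; median -1.39 against -0.11). Dynll1, a light chain of dynein, stood at 134, 701 and 233 TPM (2.37 ± 0.14 in GC against Control, limma adjusted p = 4.52e-06). Calr, a calcium-binding chaperone also implicated in nuclear export of the receptor, stood at 1470, 2520 and 622 TPM, and the nucleoporin gene Nup62 at 76.2, 113 and 36.6. Cdk5, a kinase that phosphorylates the receptor, was the member that was higher (22.9 to 54.1 TPM) and was named after its values were seen. In GC against Control 5 were lower and 3 higher (all genes: 39.1% and 16.2%). The split became 4 lower and 8 higher under median-ratio scaling, 3 and 10 once the length trend was removed, and 3 and 2 when Control replicate 1 or 2 was omitted. In GC+GW9662 against Control 16 were lower and 2 higher (all genes: 48.6% and 14.1%), and 8 and 3 with the length trend removed.

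Of 13 listed genes of steroid supply and removal, 12 were in the table and 8 were tested. H6pd, which supplies the cofactor that Hsd11b1 needs, fell from 164 TPM in Control to 40.3 in GC and 37.8 in GC+GW9662 (-2.06 and -2.09). Hsd11b2, the enzyme that inactivates glucocorticoid, stood at 2.46, 1.21 and 1.37 TPM (limma adjusted p = 0.038 in GC against Control), and was named after its values were seen. Akr1c18, which reduces progesterone, was highest in GC (7.19, 150 and 5.99 TPM; 4.21 ± 0.17, limma adjusted p = 9.54e-07). The drug pump gene Abcb1a, whose product exports dexamethasone, stood at 0.677, 3.26 and 0.906 TPM, and Abcc1, another export pump, at 81.0, 66.5 and 9.64. Serpina6, which encodes the corticosteroid-binding globulin, was listed at 0 in all libraries. In GC against Control 2 were higher and 3 lower, in GC+GW9662 against GC 1 and 4, and in GC+GW9662 against Control 1 and 3. These shares of 8 are near the 55.3%, 61.7% and 62.7% of all genes and are no result about this list. The first of these counts fell to 3 calls in all at a filter of 5 TPM, under median-ratio scaling, on rescaling without mitochondrial and top 20 genes, with the length trend removed and with voom, and to 2 without Control replicate 1.

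Of 10 other steroid and NR4 receptors 5 were tested. Esrra, an orphan receptor related to the estrogen receptors, stood at 64.3, 39.5 and 91.1 TPM, and 1 of the 5 was higher and 3 lower in GC than in Control (all genes: 16.2% and 39.1%). That count became 0 and 0 without Control replicate 1, 0 and 1 without Control replicate 2 and 2 and 0 with the length trend removed. Among 17 known target genes of the receptor 12 were lower and 3 higher in GC than in Control, 10 higher and 5 lower in GC+GW9662 than in GC, and 9 lower and 1 higher in GC+GW9662 than in Control. The shares of all genes called were 55.3%, 61.7% and 62.7%, and the last count is near its share. Median-ratio scaling turned the last of these into 5 lower and 7 higher, and the first into 8 and 4. Tsc22d3 stood at 557, 59.6 and 429 TPM and Zbtb16 at 17.1, 0.37 and 4.11, both highest in Control like Fkbp5, whereas Dusp1 (186, 708 and 209 TPM) and Mt1 (1060, 3590 and 944 TPM) were highest in GC.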

How the data were processed

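The submitters' processing notes name featureCounts, HISAT2 2.1.0 and fastp. Which build, which annotation and in which order is not given in the sources used here. Deposited by the authors were TPM values per gene and library, made from libraries that per the labels followed the Smart-Seq2 protocol, which keeps no strand. Lines repeated under one symbol were used once (54232 lines, 54134 genes), and 27 symbols stored as dates were restored by Ensembl ID. Of all gene positions 97.3% matched GENCODE M21. Whole reads (within 0.02) were recovered from the TPM steps at the M21 exon length (11684 genes) or the smallest length that gave whole numbers (15123), which was the case for the 9 genes. Amplified reads are not independent molecules, so read numbers bound counting error only. Tests used limma 3.58.1 in R 4.3.3 (data.table version 1.17.8), with Python 3.11.15, numpy 2.4.6, pandas 2.3.3 and matplotlib 3.10.9. On simulated data for GC against Control (14985 genes), 45 of 100 genes changed by 1 on the log2 scale and 84 of 100 changed by 2 were recovered, with 2 false calls. The simulation had independent noise for each gene, only 200 changed genes, no length trend and no library set apart. Its counts therefore do not give the error of the calls above.

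Named were the 9 genes, up to 4 passing genes of each list with the smallest adjusted p in a comparison, genes at 0, and the 5 genes most like Nr3c1 and Fkbp5 among those with a mean of at least 5 TPM. Some genes that this rule names are not reported here. Genes and lists were chosen with earlier results of these data known. Replicates are numbered by the titles; bracketed labels number the second control 3. Alternatives were a filter of 5 TPM or none, a pseudocount of 0.1 or 5, 3 other scalings, removal of the length trend, a constant prior, the compared groups alone, replicate blocks and omission of each library. Limma voom on recovered reads was added after seeing the data.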

Additional observations from a re-analysis of the deposited data

How the results depend on the processing

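Over 21 alternatives, 8 genes and 3 comparisons (504 values), 443 kept their direction or stayed without a call on either side, 9 gained a call, 49 lost one with the sign kept and 3 lost one and crossed 0 without passing the test: Fkbp4 to 0.05 (GC against Control) and 0.16 and Ptges3 to 0.09 (GC+GW9662 against Control), all under median-ratio scaling. The 6 calls among the 9 genes in GC against Control became 3 with the replicate block by title number and ranged from 3 to 6 on leaving out single libraries, at 3 without either Control library. The 3 calls in GC+GW9662 against GC became 5 with the length trend removed and ranged from 2 to 5, at 5 without GC replicate 1. The 7 calls in GC+GW9662 against Control ranged from 5 to 7. Over all genes, single omissions gave 5513 to 9233 calls (main 8291), 7278 to 10759 (9253) and 5598 to 10329 (9398) in the same order, with the lowest in the first and last without Control replicate 1. Where one Control library is left, it is assumed to vary like the other groups.

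Whether numbers shared between groups pair the libraries is not known. Deviations from the group means correlated at -0.10, -0.12 and 0.08 between GC and GC+GW9662 libraries of 1 number and at -0.10 to 0.14 for unlike numbers. Deviations within a group of so few libraries depend on each other, so these correlations cannot exclude pairing. With the replicate block by title number 7145, 8351 and 8368 genes passed, and by bracketed number 7329, 8448 and 8365. Depth limits Nr3c2, which rests on 0 to 40 reads.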
